A study of Mus musculus with 3 samples.

Results

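The genes described are 9 chemokine receptors, namely Ccr1, Ccr2, Ccr3, Ccr7, Cxcr4, Cx3cr1, Ccrl2, Ackr3 and Ackr4, which were taken by symbol from the 26959 named genes of the array and were read by 13 probes. RNA came from RAW 264.7 cells, a mouse macrophage line, and was hybridized to 1-colour (Cy3) SurePrint G3 Mouse GE arrays of 60-base probes. There were 3 arrays, 1 per condition. The LPS control received LPS only, at 50 ng/mL. In the CRL1505 + LPS and CRL1506 + LPS conditions the cells were first kept for 24 h with the strain CRL1505 of Lacticaseibacillus rhamnosus or the strain CRL1506 of Lactiplantibacillus plantarum, at 50000000 cells/mL, and were washed before the same LPS dose. LPS, a cell wall component of Gram-negative bacteria, is the ligand of TLR4, and all 3 conditions contained it. The LPS step lasted 12 h by the study's design text and 3 h by the sample descriptions. The cells belong to 1 immortalized line, and unstimulated cells or lactobacilli without LPS were not analysed here.

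Chemokine receptors are 7-transmembrane proteins that guide migrating leukocytes along gradients of chemokines. The conventional receptors signal through inhibitory G proteins, after which G protein-coupled receptor kinases and arrestins switch them off and RGS proteins shorten the G protein signal. The atypical receptors bind chemokines without this G protein signal, and they scavenge, transport or present their ligands. In macrophages, CCR2 draws monocytes to sites of inflammation, CX3CR1 marks resident and patrolling cells, and CCRL2 is known as an LPS-induced receptor that presents chemerin.

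With 1 array per condition there was no replicate, so no difference could be set against biological spread and no p-value is given. The processed signal is the brightness of a spot after the scanner software subtracted background, and the value after the sign ± is that software's error for the spot, which covers the single hybridization only. A probe was "well above background" where the software flagged it so. Ratios were formed after each array had been shifted to its own 75th percentile, on the log2 scale, and a gene was counted at 2-fold or more. Where only 1 of the compared arrays was well above background, the ratio is a lower bound, marked "at least". The signal at the 75th percentile was lowest on the CRL1505 + LPS array (517.0, against 743.1 for LPS and 697.9 for CRL1506 + LPS), and so was the share of gene spots well above background (48.5%, against 54.5% and 55.3%). The CRL1505 + LPS array also lay on a slide and in a scan run of its own, whereas the other two shared both, so that strain CRL1505 and slide cannot be told apart. All 8 macrophage markers were well above background on every array, although with CRL1505 Fcgr1, a receptor for IgG, was 5.28-fold higher, Adgre1, an adhesion-type receptor of mature macrophages, was 4.83-fold higher and Csf1r, the M-CSF receptor, was 2.77-fold lower. With CRL1506, Fcgr1 was 1.93-fold higher, Adgre1 2.0-fold higher and Csf1r 1.83-fold lower. Of the epithelial markers 0 of 3 were well above background on any array.

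Probes of 3 receptors carry the main values below, and the following 30-base stretches of them are shown to identify what was read. Probe positions refer to the mm9 build, as in the files, and the capitals mark the AATAAA hexamer, which is the common polyadenylation signal and was present in 1 Cx3cr1 probe and in the brighter Cxcr4 probe.
Cx3cr1, brighter probe (A_55_P2007964, chr9:119957811-119957870, minus strand), bases 27 to 56: tgtaattctgtcAATAAAcattggtttcct
Cx3cr1, dimmer probe (A_52_P99810, chr9:119959018-119959077, minus strand), bases 1 to 30: caagaatgtcttcatgcattcactgactcc
Cxcr4, brighter probe (A_52_P585124, chr1:130485079-130485138, minus strand), bases 27 to 56: tgtggtaaattgAATAAAgctagccgtgat
Ackr4, brighter probe (A_52_P153291, chr9:104000864-104000923, minus strand), bases 1 to 30: atttgtgttacaccgagacccaaccatcaa
Ackr4, dimmer probe (A_66_P119623, chr9:104000477-104000539, minus strand), bases 1 to 30: agaagaacatcatgctgtgagcctagcaac

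Cx3cr1, the fractalkine receptor, was lower with both strains, and with CRL1505 it had the largest difference from LPS among the receptors. Its brighter probe had a signal of 2432 ± 243 with LPS, 531.3 ± 53.8 with CRL1506 + LPS and 7.09 with CRL1505 + LPS, and the last was not well above background. The order was LPS, then CRL1506 + LPS, then CRL1505 + LPS, with no overlap of the spot errors. Relative to LPS, Cx3cr1 was 4.30-fold lower with CRL1506 (log2 ratio -2.10, with 0.21 from the spot errors) and at least 57.1-fold lower with CRL1505 (log2 bound -5.83). Between the strains, the level with CRL1505 was at least 13.3-fold lower than with CRL1506. In bulk RNA, fewer cells with a transcript and less of it per cell cannot be told apart.

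The dimmer Cx3cr1 probe, 1207 bases away on the same chromosome, gave the same order. Its signal was 758.8 ± 76.3 with LPS, 156.5 ± 17.6 with CRL1506 + LPS and 6.84, not well above background, with CRL1505 + LPS. By this probe Cx3cr1 was 4.56-fold lower with CRL1506 and at least 17.8-fold lower with CRL1505. Between the strains the dimmer probe gave a weaker bound, at least 3.91-fold lower with CRL1505 than with CRL1506. Under the 7 other ways of normalizing the arrays, the log2 ratio of the brighter probe lay between -2.31 and -1.92 for CRL1506 and between -6.34 and -4.18 for CRL1505, past 2-fold in all of them. For CRL1505 against CRL1506 its log2 bound lay between -4.12 and -2.19, also past 2-fold in all 7. In RefSeq the bounds of Cx3cr1 overlap those of a long non-coding RNA gene, Gm33858.

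**Figure D1:**
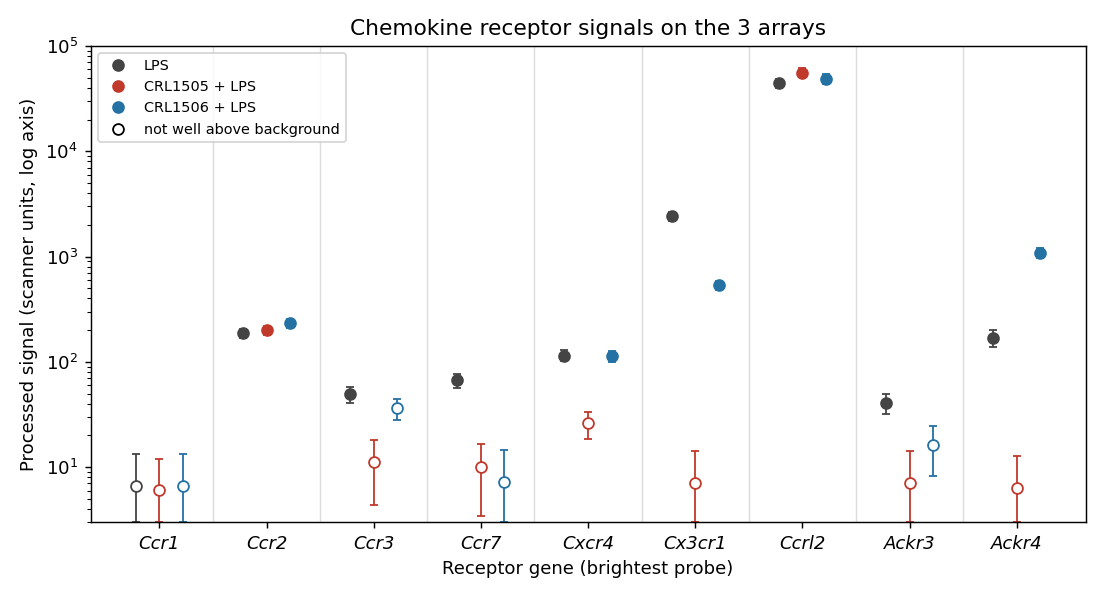
Processed signal (scanner units, log axis) of the brightest probe of each receptor on the 3 arrays. Points are single arrays, bars the software's error of the spot (cut at the lower end of the axis), and open points were not well above background. Cx3cr1 ran from 2432 with LPS to 531.3 with CRL1506 + LPS and 7.09 with CRL1505 + LPS, while Ccr2 and Ccrl2 were well above background on all 3 arrays.

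Cxcr4, the receptor for CXCL12, which holds leukocytes in bone marrow and tissues, was lower with CRL1505 and close to LPS with CRL1506. Its brighter probe gave 114.9 ± 13.8 with LPS, 114.0 ± 13.9 with CRL1506 + LPS and 26.2, not well above background, with CRL1505 + LPS. The LPS and CRL1506 + LPS signals lay within each other's error, and their log2 ratio was 0.08 with 0.25 from the spot errors, the range over the other normalizations being -0.13 to 0.17. With CRL1505, Cxcr4 was at least 2.70-fold lower than with LPS (log2 bound -1.43) and at least 2.85-fold lower than with CRL1506. With its spot error (26.2 ± 7.54), the CRL1505 + LPS signal reached above the 29.6 used for both bounds. The bound against LPS ranged from -1.94 to -0.49 and was past 2-fold in 5 of 7 other normalizations. The bound against CRL1506 ranged from -1.895 to -0.556 and was also past 2-fold in 5 of 7. The other Cxcr4 probe, 1035 bases away, stayed near background on each array (7.94, 6.28 and 7.09 with LPS, CRL1505 + LPS and CRL1506 + LPS), so Cxcr4 rests on 1 probe.

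Ccr2 encodes the receptor for CCL2 and the other monocyte chemoattractants, and it was measured on every array. Its signal was 187.1 with LPS, 199.4 with CRL1505 + LPS and 233.5 with CRL1506 + LPS, with spot errors of at most 24.5. Before scaling, the errors of neighbouring arrays in this order overlapped, and those of LPS and CRL1506 + LPS did not. After scaling, Ccr2 was 1.53-fold higher with CRL1505 (log2 ratio 0.61, with 0.22 from the spot errors) and 1.33-fold higher with CRL1506 (0.41, with 0.22), which did not reach 2-fold under any of the 7 other normalizations.

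Ccr7, which directs mature dendritic cells and T cells to lymph nodes, was well above background with LPS only. Its signal was 66.6 ± 9.68 with LPS, 9.96 with CRL1505 + LPS and 7.20 with CRL1506 + LPS. Both strains lay below LPS, but since the LPS spot was itself dim the data bound the difference to at least 1.56-fold for CRL1505 and at least 1.89-fold for CRL1506. The bound passed 2-fold in 1 of 7 other normalizations for CRL1505 and in 4 of 7 for CRL1506. The second Ccr7 probe starts 38 bases away and stayed near background on each array.

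Ccr3, the eotaxin receptor of eosinophils, was likewise well above background with LPS only, at 49.5 ± 8.76, against 11.3 with CRL1505 + LPS and 36.2 with CRL1506 + LPS. With CRL1505 Ccr3 was at least 1.16-fold lower, and only 4 of 7 other normalizations gave any ratio. With CRL1506 its own signal (36.2 ± 8.16) was used, so the 1.28-fold lower value is a plain ratio. The LPS and CRL1506 + LPS spot errors overlapped. Ccr1, a receptor for CCL3 and CCL5 on monocytes and neutrophils, stayed near background on each array (6.63, 6.01 and 6.60 in the order LPS, CRL1505 + LPS and CRL1506 + LPS), so no ratio was formed. A probe that is not well above background sets no zero level for the transcript.

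Among the atypical receptors, Ackr4, a scavenger of CCL19, CCL21 and CCL25, passed 2-fold with both strains, in opposite directions. The brighter probe gave 169.7 ± 31.3 with LPS, 1087 ± 109 with CRL1506 + LPS and 6.35, not well above background, with CRL1505 + LPS. Ackr4 was thus 6.82-fold higher with CRL1506 (log2 ratio 2.77, with 0.30 from the spot errors) and at least 3.98-fold lower with CRL1505 (log2 bound -1.99). The level with CRL1505 was at least 27.2-fold lower than with CRL1506. The range over the other normalizations was 2.36 to 3.06 for CRL1506 and -2.50 to -0.91 for CRL1505, past 2-fold in 7 of 7 and in 5 of 7.

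These Ackr4 values rest on 1 probe and, for both comparisons with LPS, on an uneven spot. On the LPS array the mean pixel signal of that spot exceeded its median pixel signal by 0.85 on the log2 scale, and 6 of its 20 nearest spots were uneven too, against 2 of 20 on the CRL1506 + LPS array. With uneven spots left out this probe was no longer measured on all arrays, the dimmer probe took its place, and no Ackr4 ratio was formed. On the strains' own arrays the spot was even (-0.02 with CRL1505 + LPS and 0.06 with CRL1506 + LPS on the same scale), and the comparison of the strains with each other does not use the LPS spot. The dimmer Ackr4 probe, 387 bases away, had signals of 13.8 with LPS, 7.00 with CRL1505 + LPS and 17.7 with CRL1506 + LPS, none well above background. In RefSeq the bounds of Ackr4 overlap those of Acad11, and which transcript the brighter probe read was not tested.

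**Figure D2:**
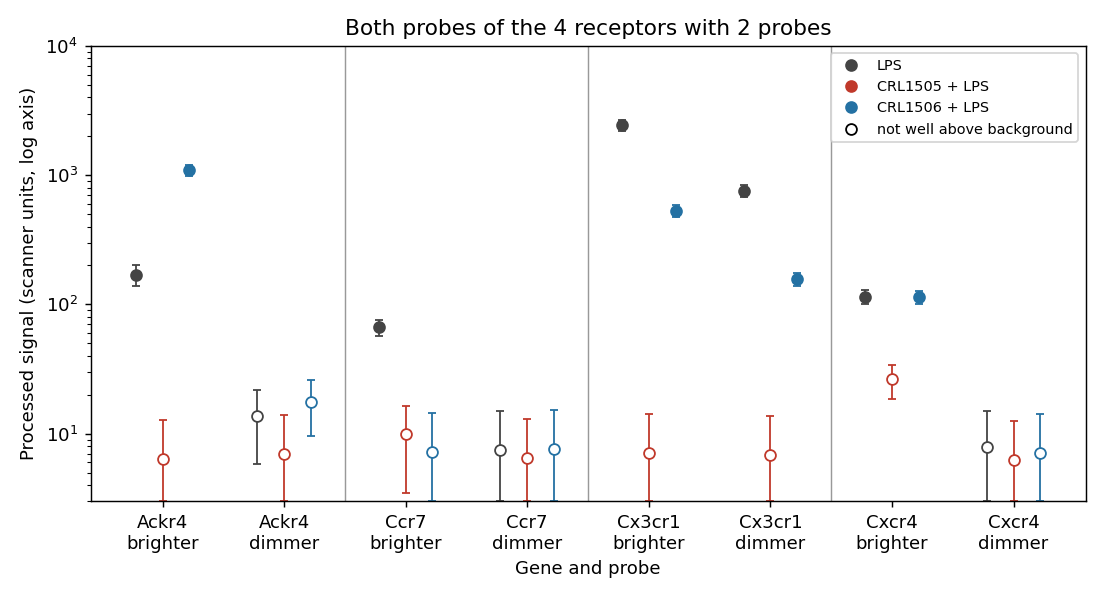
Processed signal (scanner units, log axis) of both probes of the 4 receptors that had 2 probes, on the 3 arrays. Points are single arrays, bars the software's error of the spot (cut at the lower end of the axis), and open points were not well above background. Both Cx3cr1 probes gave the order LPS, CRL1506 + LPS, CRL1505 + LPS, and the dimmer probes of Ackr4, Ccr7 and Cxcr4 stayed near background on each array.

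Ccrl2 had signals of 44030 ± 4400 with LPS, 55930 ± 5590 with CRL1505 + LPS and 48820 ± 4880 with CRL1506 + LPS, where the errors of LPS and CRL1505 + LPS did not overlap and those of CRL1506 + LPS overlapped with both. It was 1.83-fold higher with CRL1505 (log2 ratio 0.87, with 0.20 from the spot errors) and 1.18-fold higher with CRL1506 (0.24, with 0.20). Over the other normalizations the log2 ratio ran from 0.36 to 1.16 for CRL1505, past 2-fold in 1 of 7, and from 0.04 to 0.47 for CRL1506. Between the strains Ccrl2 was 1.55-fold higher with CRL1505.

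Ackr3, an atypical receptor that removes CXCL12, was near background. Its signal was 40.6 ± 8.70 with LPS, where the spot was uneven (0.21 on the log2 scale), and it was not well above background with CRL1505 + LPS (7.11) or CRL1506 + LPS (16.3). With CRL1506 it was at least 1.15-fold lower, and with CRL1505 the shifted background level lay above the LPS value, so no ratio could be formed.

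**Figure D3:**
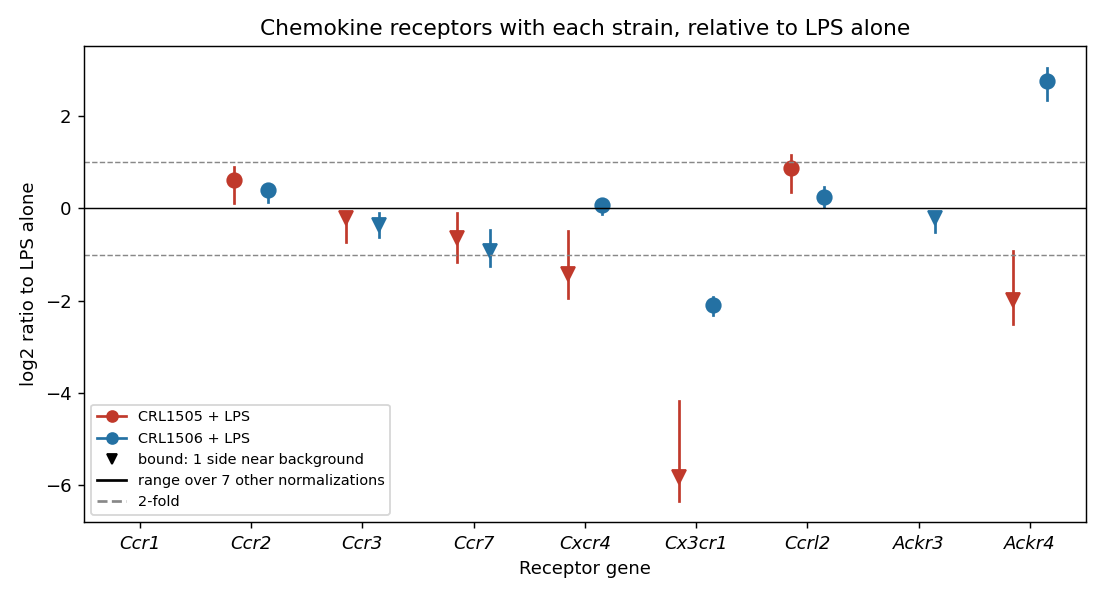
log2 ratio of each receptor to LPS alone for CRL1505 + LPS (red) and CRL1506 + LPS (blue). Circles were measured on both arrays, triangles are bounds with 1 side not well above background, vertical lines span the 7 other normalizations and dashed lines mark 2-fold. Cx3cr1 was past 2-fold lower with both strains, Ackr4 past 2-fold lower with CRL1505 and past 2-fold higher with CRL1506, and Ccr1 had no ratio.

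Counted together, among the 7 receptors that could be compared with LPS, 3 were at least 2-fold lower with CRL1505 (Cxcr4, Cx3cr1 and Ackr4). Each of the 3 is a bound, and 0 receptors passed 2-fold upwards. Of the 7 values, 5 were bounds with only LPS well above background, and such a bound could only come out lower. Over all genes compared, 8.45% passed 2-fold downwards and 9.88% upwards with CRL1505. Of these 15594 genes, 13216 were measured on both arrays, so their shares are not of the same kind as the receptor counts. With CRL1506, 1 receptor was higher (Ackr4) and 1 was lower (Cx3cr1) among 8 compared, beside 5.77% and 3.52% of all genes. Between the strains, 0 of 5 receptors were higher and 3 lower with CRL1505 (the same 3 genes as against LPS), beside 8.95% and 7.62% of all genes. The 3 are again bounds, with only CRL1506 + LPS well above background, and could only come out lower. Of the 15782 genes compared between the strains, 13290 were measured on both arrays. Both strains were compared with the same LPS array.

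Of the 8 receptors well above background with LPS, 6 were no longer so with CRL1505 (Ccr3, Ccr7, Cxcr4, Cx3cr1, Ackr3 and Ackr4) and 3 were no longer so with CRL1506 (Ccr3, Ccr7 and Ackr3). Of all genes well above background with LPS, 14.3% were lost with CRL1505 and 6.63% with CRL1506. Most of these receptors were dim, and among all genes with an LPS signal of 40 to 200, 42.2% were lost with CRL1505 and 17.5% with CRL1506. In that range lay 6 of the receptors, of which 5 were lost with CRL1505 and 3 with CRL1506. Cx3cr1 was the one lost receptor above that range. The lower signal of the CRL1505 + LPS array moved with these losses, and its part in them was not tested.

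Of 17 other chemokine receptors on the array, 7 were well above background on any array and 6 could be compared with LPS for either strain. The median log2 ratio was -0.05 with CRL1505, 2 of the values being bounds, and -0.19 with CRL1506, beside 0.01 and -0.06 for all genes compared. Cxcr3, the receptor for the interferon-induced chemokines CXCL9, CXCL10 and CXCL11, had a signal of 483.6 with LPS, 35.9 with CRL1505 + LPS and 273.3 with CRL1506 + LPS. It was 9.39-fold lower with CRL1505 (log2 ratio -3.23, range over the other normalizations -3.74 to -1.88), the 1 gene of this list past 2-fold there, and its log2 ratio was -0.73 with CRL1506. Cxcr6, which binds CXCL16, was past 2-fold higher with CRL1506 (39.2 with LPS against 83.2, 2.26-fold), with a range of log2 ratios of 0.42 to 1.26.

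Many of the receptor genes share a chromosome. By the probe positions on mm9, 6 of the 9 receptors and 9 of the 17 others lay on chromosome 9. Ccr8, whose probe lies 46.1 kb from that of Cx3cr1, had signals of 68.8 with LPS, 54.6 with CRL1505 + LPS and 48.1 with CRL1506 + LPS. Its log2 ratios were 0.19 and -0.42, so this close neighbour did not pass 2-fold with either strain.

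Among 19 ligands of the 9 receptors, 15 could be compared with LPS for each strain. With CRL1505, 4 passed 2-fold upwards and 1 downwards, and with CRL1506, 0 upwards and 2 downwards, where the shares of all genes were 9.88% and 8.45% with CRL1505 and 5.77% and 3.52% with CRL1506. The median log2 ratio of the ligands was 0.46 with CRL1505 and 0.09 with CRL1506, and that of all genes compared, bounds included, was 0.01 and -0.06. Cx3cl1, which encodes fractalkine, the ligand of CX3CR1, had a signal of 101.0 with LPS, 174.9 with CRL1505 + LPS and 26.5, not well above background, with CRL1506 + LPS. It was 2.49-fold higher with CRL1505, where Cx3cr1 was lowest, and at least 2.87-fold lower with CRL1506, although the log2 ranges over the other normalizations, 0.81 to 1.65 and -1.88 to -0.63, reached inside 2-fold.

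Ccl24, eotaxin-2, a ligand of CCR3, was lower with both strains. Its signal was 794.8 with LPS, 52.7 with CRL1506 + LPS and 23.9, not well above background, with CRL1505 + LPS. It was 14.2-fold lower with CRL1506 and at least 18.7-fold lower with CRL1505, past 2-fold over the whole range of normalizations. The monocyte chemoattractant Ccl7 had signals of 62140 with LPS and 172600 with CRL1505 + LPS and was 3.99-fold higher. Ccl8, of the same family, had signals of 19.1, not well above background, and 238.8, at least 10.3-fold higher. Ccl5, a ligand of CCR1 and CCR3, was 2.27-fold higher with CRL1505 (145700 and 230500), whereas Ccl2, the main ligand of CCR2, did not pass 2-fold (1.36-fold). The range of log2 ratios of Ccl5, 0.68 to 1.48, reached inside 2-fold, while those of Ccl7 (1.49 to 2.29) and Ccl8 (2.14 to 3.84) did not. With CRL1506, Ccl7 was 1.79-fold higher and Ccl5 1.12-fold higher, and Ccl8 was not well above background.

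Of 32 genes for signaling and desensitization of chemokine receptors on the array, 31 could be compared. With CRL1505, 2 passed 2-fold upwards (Plcb3, a phospholipase C, by 2.15-fold, and Grk5, a receptor kinase, by 2.34-fold, both inside 2-fold under some of the other normalizations) and 3 downwards. Arrb1, beta-arrestin 1, was 3.85-fold lower with CRL1505 (5342 with LPS and 966.3 with CRL1505 + LPS) and had a log2 ratio of -0.61 with CRL1506. Rgs10 and Rgs18, which shorten G protein signals, were the 2 genes past 2-fold lower with each strain. Rgs10 had signals of 5597 with LPS, 1738 with CRL1505 + LPS and 2529 with CRL1506 + LPS, and Rgs18 of 167.8, 41.2 and 67.2. Rgs10 was 2.24-fold lower with CRL1505 and 2.08-fold lower with CRL1506, Rgs18 was 2.84-fold and 2.35-fold lower, and for both genes and both strains the range over normalizations reached inside 2-fold. With CRL1506, 0 passed upwards and 2 downwards. The shares of all genes past 2-fold upwards and downwards were 9.88% and 8.45% with CRL1505 and 5.77% and 3.52% with CRL1506. The 2 and 3 of 31 genes with CRL1505 lay near these shares. The median log2 ratio of the list was 0.00 with CRL1505 and -0.22 with CRL1506, beside 0.01 and -0.06 for all genes.

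**Figure D4:**
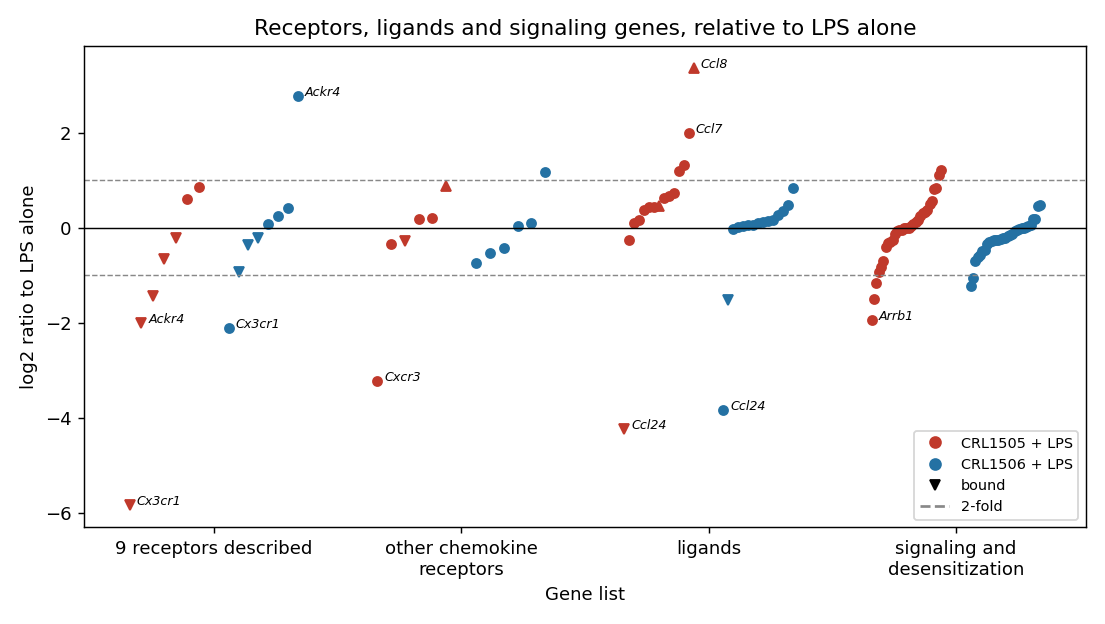
log2 ratio to LPS alone for the 9 receptors, the other chemokine receptors, the ligands and the signaling genes, with CRL1505 + LPS in red and CRL1506 + LPS in blue. Each symbol is 1 gene ordered by its value, triangles are bounds, dashed lines mark 2-fold, and genes with a log2 ratio beyond 1.9 are named. Cx3cr1, Ccl24 and Cxcr3 were the lowest with CRL1505, and Ccl8 was the highest.

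Markers of other cell types differed between the arrays as well, and their part in the receptor values was not tested. As multiples of an array's 75th percentile, the summed signal of 3 neutrophil markers was 1.37 with CRL1505 + LPS and 2.26 with CRL1506 + LPS (3 and 1 of 3 well above background), and that of S100a8 and S100a9 alone was 1.79 with LPS, where the spot of Ly6g was an outlier. These markers went opposite ways with CRL1505. S100a8 was 2.48-fold lower than with LPS, and S100a9 (7.79 with LPS and 7.90 with CRL1506 + LPS, neither well above background, and 209.6 with CRL1505 + LPS) was at least 9.04-fold higher. Ly6g was at least 4.90-fold higher with CRL1505 than with CRL1506. The summed signal of 4 T cell markers was 1.30, 1.17 and 1.34 in the order LPS, CRL1505 + LPS and CRL1506 + LPS, with 2 of 4 well above background on each array, and Cd3g and Cd8a on none. For 3 dendritic cell markers it was 0.83, 0.96 and 1.02 (2, 2 and 3 of 3), and for 2 fibroblast markers 0.07, 0.19 and 0.23 (0, 1 and 2 of 2). The summed macrophage markers were 715.0, 707.0 and 581.0.

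The 250 bases before a RefSeq transcription start were read for 8 of the 9 receptors, for Ccr7 not, with coordinates on GRCm38.p6, which are not those of the probes. Of the 3 windows of Ccrl2, the most upstream was used. The windows of Ccr2 and Ccr3 lie inside the RefSeq bounds of these genes, so they do not precede the outermost start. Windows are shown for Cx3cr1 and Cxcr4, lower with CRL1505, and for Ccrl2, which was higher with CRL1505 in every normalization tried. Of the receptors not shown, Ccr2 was also higher with CRL1505 in every normalization, and Ackr4 was lower in every one, as a bound. Both strands were searched for a kappaB-like motif, GGGNNNNNCC, for GAGGAA as bound by PU.1, and for GAAANNGAAA, an interferon response element. Capitals mark matches, and positions count back from the start site.
Cx3cr1 (chr9:120068297-120068546, minus strand): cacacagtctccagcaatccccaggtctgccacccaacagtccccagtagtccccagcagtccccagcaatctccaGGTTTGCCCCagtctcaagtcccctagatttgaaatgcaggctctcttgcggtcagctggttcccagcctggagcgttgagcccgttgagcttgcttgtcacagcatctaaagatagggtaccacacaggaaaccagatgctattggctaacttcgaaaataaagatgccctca
Cxcr4 (chr1:128592300-128592549, minus strand): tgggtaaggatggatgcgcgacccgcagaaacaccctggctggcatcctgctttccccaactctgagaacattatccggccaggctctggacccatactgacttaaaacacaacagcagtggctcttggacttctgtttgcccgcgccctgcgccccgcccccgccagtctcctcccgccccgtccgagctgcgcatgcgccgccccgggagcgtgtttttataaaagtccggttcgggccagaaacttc
Ccrl2 (chr9:111057519-111057768, minus strand): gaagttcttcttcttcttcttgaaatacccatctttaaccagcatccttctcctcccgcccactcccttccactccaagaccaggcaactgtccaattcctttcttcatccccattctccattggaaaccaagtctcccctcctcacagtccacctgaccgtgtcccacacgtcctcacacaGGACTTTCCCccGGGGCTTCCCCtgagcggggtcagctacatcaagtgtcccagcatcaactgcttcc

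The Ccrl2 window held 5 kappaB-like matches, counting both strands, at position -68 and, overlapping one another, at -56 and -55. The Cx3cr1 window held 1 such match, at position -174, and the Cxcr4 window 0 of any of the 3 motifs. Of the windows not shown, those of Ackr4, Ccr1 and Ccr3 each held 1 kappaB-like match. Those of Ccr1 and Ccr3 also held 1 GAGGAA each, and those of Ccr2 and Ackr3 held 0 of any of the 3 motifs. Among 32851 RefSeq windows of this length, 45.8% held the kappaB-like motif at least once, 23.3% GAGGAA and 2.98% GAAANNGAAA. These shares count windows, not matches. A match describes letters in the window and was not tied to binding in these cells.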

How the data were processed

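RNA of 3 cultures (LPS, CRL1505 + LPS, CRL1506 + LPS) was measured on 1 array each. The authors deposited, per array, the output of Feature Extraction 12.0.3.1 (version in the file headers), whose processed signal is an intensity after background subtraction and spatial detrending, not normalized between arrays. They also deposited a table of log2 values normalized between arrays, which served as an alternative. The log2 processed signal had the 75th percentile over gene spots subtracted, array by array. Outlier spots (467, 241 and 274 in the order above) were left out, and 0 gene spots were saturated. The brightest probe represented a gene. For a bound, a signal not well above background was replaced by the lowest signal well above background of its array (33.3, 29.6 and 33.1), or by its own value if higher. The threshold was 2-fold.

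The members and lists were chosen with earlier results of these data known, and the 40 to 200 signal range after the values were seen. All members are described, and genes of other lists are named where past 2-fold with either strain, or, as Ccr8, by position; markers were named after their values were seen. The 7 other normalizations were a median shift, the 75th percentile over probes well above background on all arrays, 8 spike-in probes, quantile, cyclic loess, normexp (offset 50) and the deposited table. A spot was uneven if mean exceeded median pixel signal by over 0.2 on the log2 scale. Python 3.11.15, pandas 2.3.3, NumPy 2.4.6, R 4.3.3 and limma 3.58.1 were used, and the steps were tested on simulated data. The simulated arrays were all built from the LPS array, with changes only in genes brighter than most of the receptors. The simulation therefore says little about dim spots and bounds. The number of arrays limits the precision.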

Additional observations from a re-analysis of the deposited data

Results flagged for a closer look

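Ackr4 went in opposite directions with the 2 strains against the same LPS array, with a log2 ratio of -1.99 (a bound) for CRL1505 + LPS and of 2.77 for CRL1506 + LPS. With 1 array per condition the difference was not tested. The LPS spot behind both values was uneven, and the second Ackr4 probe stayed near background on each array.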

How the results depend on the processing

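Of 222 log2 ratios of single receptors over 12 alternatives, 155 moved by less than the spread between probes of a gene (0.23 on the log2 scale), and 67 moved by more. The 155 include ratios that could not move, so their share is no measure of stability. All ratios formed kept their main value with outlier spots kept (20), uneven spots left out (16) and both arrays well above background (9). Only bounds could move with no filter on dim probes, and only Cx3cr1 with the mean over probes. Among the other normalizations, those moved by more ranged from 0 of 20 (75th percentile over probes well above background) to 12 of 20 (spike-in scaling). Of the ratios past 2-fold, 0 changed sign. A bound that would change sign formed no ratio and left the count. A sign change of a bound could thus show only with no filter on dim probes. The sign changed in 6 cases, namely Cxcr4 with CRL1506 against LPS, 0.08, under 5 alternatives (-0.13 to -0.04) and Ccr2 with CRL1505 against CRL1506, 0.20, under 1 (-0.18). The count of receptors lower with CRL1505 than with LPS, 3, was 1 (Cx3cr1) with normexp, with the deposited table and at 4-fold. It was 2 with uneven spots left out (Ackr4 lost) and 4 with spike-in scaling and at 1.5-fold (Ccr7 added). It was 6 with no filter on dim probes and 0 when both arrays had to be well above background, which removes its bounds. The count lower with CRL1505 than with CRL1506, 3, was 2 with normexp, the deposited table, uneven spots left out and at 4-fold. That count was 4 with no filter and 0 with both arrays well above background, which again removes its bounds. The count lower with CRL1506, 1, was 2 with the median shift, spike-in scaling, quantile normalization, cyclic loess and at 1.5-fold (Ccr7 added), and 3 with no filter. The count higher with CRL1505, 0, was 1 with the median shift (Ccrl2) and 2 at 1.5-fold (Ccr2 and Ccrl2), and against CRL1506 it was 1 under both (Ccrl2). The count higher with CRL1506, 1, was 0 with uneven spots left out, as Ackr4 then had no ratio. Over genes measured on both arrays, bounds left out, the median log2 ratio, 0.06 with CRL1505 and -0.07 with CRL1506, was 0.35 and -0.27 with the median shift and -0.45 and -0.19 with spike-in scaling; Cx3cr1 lay below it in each. Of all genes past 2-fold with CRL1505, 53.9% were higher, against 76.0% with the median shift and 19.9% with spike-in scaling; with CRL1506 it was 62.1%, against 44.1% and 51.9%, and for CRL1505 against CRL1506 54.0%, against 88.8% and 23.5%. No paired analysis was possible because each condition had 1 array. Signals near background allow only bounds.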
